A study of Mus musculus with 4 samples.

Results

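The genes of the mitochondrial respiratory chain that are encoded in the nucleus were examined in the mouse hippocampus with and without repeated social defeat stress (R-SDS). Members were chosen by symbol: every gene whose symbol begins with Nduf (complex I), Uqcr (complex III), Cox4 to Cox8 (complex IV) or Atp5 (complex V), and Sdha, Sdhb, Sdhc and Sdhd (complex II). The rule used symbols and not the size of a difference, though it was set with earlier results of these data known, and where several array rows named 1 gene, the row with the highest mean over the 4 arrays stood for it. The choice gave 89 genes of the 19938 with a row of their own on the array, of which 41 belonged to complex I, 4 to complex II, 8 to complex III, 19 to complex IV and 17 to complex V. Ndufa4 and its paralog Ndufa4l2 were counted with complex IV, since NDUFA4 is now regarded as a subunit of that complex. The 41 genes of complex I held 6 of its catalytic core, 28 accessory subunits and 7 assembly factors (Ndufaf), which build the complex but are not part of it. Because 6 further rows named a member together with another gene, Cox7c and Ndufb4 were not analysed here.

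Respiratory complexes I to IV pass electrons from NADH and succinate to oxygen, complexes I, III and IV pump protons across the inner mitochondrial membrane as they do so, and complex V, the ATP synthase, uses the returning protons to make ATP. Most of their subunits are nuclear genes, while a small number are encoded in mitochondrial DNA and assembled together with the nuclear ones. Neurons depend strongly on this ATP supply, and several subunits of complex IV exist as a broadly expressed form and as an isoform known mainly from muscle, testis or hypoxic tissue.

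The R-SDS group (2 arrays) came from male C57BL/6JJmsSlc mice that were put into physical contact with an aggressive ICR male for 10 min a day over 10 days and otherwise lived beside it behind a divider. The Control group (2 arrays) came from unstressed males of the same strain, housed in pairs on either side of a divider, with a new partner each day. All were 11 to 12 weeks old by their labels, no genetic change was involved, and total hippocampal RNA was hybridised with 1 array per sample. The study describes the stressed arrays as those of separate mice of the susceptible class. The labels state neither, nor that the Control samples came from separate mice, and a p-value here covers only how far these samples spread. Values are log2 signals after robust multi-array averaging (RMA), and because probes differ in brightness, levels were compared only between samples and not between genes. A difference is R-SDS minus Control on the log2 scale throughout.

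The 4 arrays correlated at 0.988 to 0.996 over 21789 transcripts (Pearson; transcripts are not replicates of a condition). All 8 listed neuron markers were measured, and their differences lay between -0.059 and 0.054. R-SDS 1 stood apart in its markers, since 12 measured choroid plexus genes had a median of 2.43 above their Control mean in R-SDS 1, against -0.16 in R-SDS 2, and 0.16 and -0.16 in Control 1 and Control 2. Samples numbered 1 also had the broader spread of values, with an interquartile range of 3.37 in R-SDS 1 and 3.34 in Control 1, whereas it was 3.11 in R-SDS 2 and 3.06 in Control 2. Differences are therefore also given within number 1, as R-SDS 1 minus Control 1, and within number 2, as R-SDS 2 minus Control 2.

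Among the respiratory chain genes the 2 groups were close. Of the 89 genes, 49 were higher and 40 lower in R-SDS than in Control, and the median difference was 0.0055, against 0.0072 over all transcripts. After quantile normalisation the median of the 89 genes was -0.0092, against -0.0045 over all transcripts, and its sign thus depended on the scaling. The difference was smaller than 0.1 in 77 genes (86.5%), against 62.4% of all transcripts and 79.3% of the 5579 transcripts with a mean of at least 8. That brightness was reached by 67 of the 89 genes and by 25.6% of all transcripts, and 63 of the 67 differed by less than 0.1. With the restricted isoforms of complex IV and the assembly factors set aside, the remaining 74 genes lay between -0.12 and 0.13, with a median of 0.0014.

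By limma with Benjamini-Hochberg adjustment over all transcripts, 0 of the 89 genes passed an adjusted p of 0.05, as did 0% of all transcripts in either direction. At an unadjusted p under 0.05 the count was also 0, against 1.01% of all transcripts (0.468% higher and 0.546% lower), and the lowest unadjusted limma p of a member was 0.14, for Cox8c. The methods' t-test gave 4 genes at an unadjusted p under 0.05 (Ndufs7, Ndufb11, Cox6c and Cox5b), against 2.02% of all transcripts, and 0 after adjustment. The study's own cut-offs, which ask for an absolute log2 difference over 0.5 and an unadjusted p under 0.05, were passed by 0 members, against 0.147% of transcripts upward and 0.193% downward. With 2 arrays against 2, an exact permutation test cannot give a p below 0.33. By the spread of these samples alone, the 95% interval of limma lay within 0.5 of 0 for 79 of the 89 genes. The same held for 13281 of 21789 transcripts and for 4401 of the 5579 with a mean of at least 8. The median standard error of the members was 0.14. In whole tissue, fewer cells of a type and less RNA per cell cannot be told apart.

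**Figure D1:**
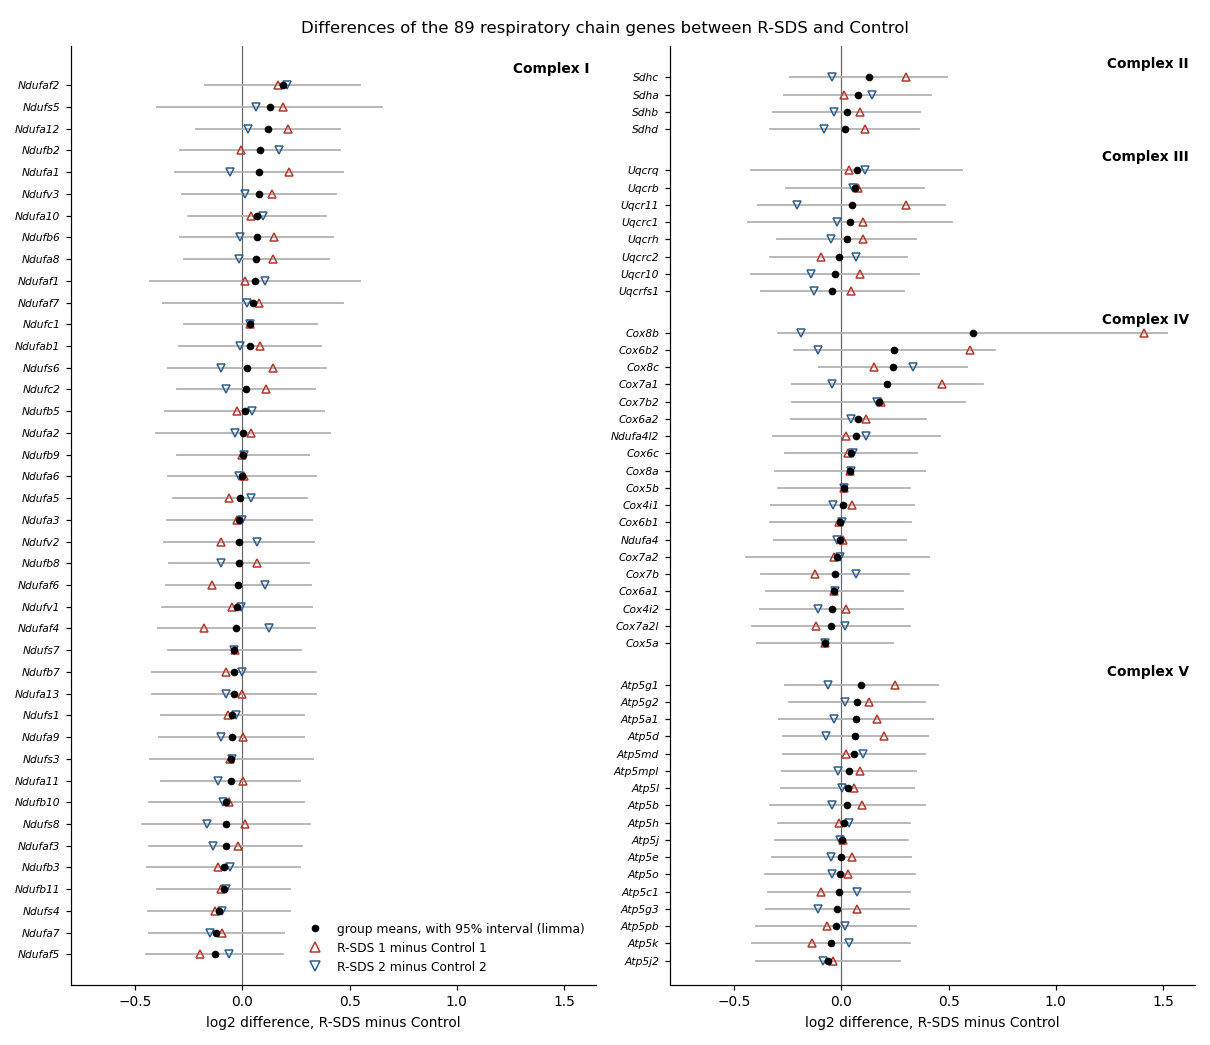
Log2 difference, R-SDS minus Control (horizontal axis), of each of the 89 genes, listed by complex and ordered by difference. Black points with grey lines are the difference of the group means with its 95% interval from limma, and triangles are the differences within replicate numbers 1 and 2; 77 points lie within 0.1 of 0, and Cox8b stands out at 0.61 with an interval of -0.30 to 1.52.

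Groups that did not overlap, with both R-SDS values above or both below both Control values, were found in 13 of the 89 genes (14.6%), against 18.5% of all transcripts. In 8 genes both R-SDS values were the higher ones, against 9.41% of all transcripts in that direction. These were Ndufc1, Ndufa12, Cox5b, Cox6c, Cox6a2, Cox8c, Atp5l and Atp5g2. In 5 genes both were the lower ones, against 9.06% of all transcripts, namely Ndufa7, Ndufb11, Ndufaf5, Ndufs7 and Cox5a. These genes came from different complexes, and Cox8c was the only one of them with a difference beyond 0.15.

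Complex I, which takes electrons from NADH, had 18 genes higher and 23 lower, with a median difference of -0.015. All 6 measured nuclear genes of its catalytic core were lower in R-SDS by a small amount, with a median of -0.042 and a range of -0.077 to -0.017. Set against the mean of both Control samples, all 6 lay below it in R-SDS 2 (median -0.099). In R-SDS 1 only Ndufs7 did, and the other 5 lay above it (median 0.029). Between samples of the same number, the median was -0.051 within number 1 and -0.034 within number 2. In each number 1 of the 6 genes was higher in R-SDS, and 4 were lower in both. Ndufv1, which carries the flavin that accepts electrons from NADH, read 9.19 and 9.05 in the R-SDS samples, against 9.23 and 9.05 in Control (difference -0.026, SE 0.14). Ndufs1, the largest iron-sulfur subunit of the core, read 9.63 and 9.52 in the R-SDS samples, against 9.69 and 9.55 in Control (difference -0.047, SE 0.14). For both genes the 2 R-SDS values lay among or just outside the Control values, and the gap between samples of 1 group was larger than the gap between groups. Ndufs7, a core subunit that holds an iron-sulfur cluster, was the only core gene whose groups did not overlap, at 10.63 and 10.63 in R-SDS and 10.66 and 10.67 in Control.

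The 28 accessory subunits of complex I were split, with 15 higher and 13 lower and a median of 0.0022. Ndufa12, an accessory subunit of the matrix arm, read 9.17 in each R-SDS array, against 8.95 and 9.14 in Control, so the groups did not overlap but the closer Control value was almost the same. Ndufa7, another accessory subunit, had 7.48 and 7.38 in R-SDS and 7.57 and 7.53 in Control. The assembly factors held the extremes of complex I. Ndufaf2, a chaperone of late assembly, was the highest, at 6.65 and 6.48 in the R-SDS samples, against 6.48 and 6.27 in Control (difference 0.19, SE 0.15, adjusted p = 1 by limma), and R-SDS 2 and Control 1 coincided. Ndufaf5, an enzyme that modifies Ndufs7 during assembly, was the lowest, at 6.79 and 6.92 in the R-SDS samples, against 6.99 and 6.98 in Control (difference -0.13, SE 0.13, adjusted p = 1 by limma). Of the 7 assembly factors, 3 were higher and 4 lower.

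Complex II, or succinate dehydrogenase, links the tricarboxylic acid cycle to the chain and is encoded wholly in the nucleus. All 4 of its genes were higher in R-SDS, Sdhd only without quantile normalisation or centring of the arrays, and the median was 0.051. In each gene the 2 groups overlapped. Sdhc, a membrane anchor, had the largest difference of the complex, 0.13 (SE 0.15), with 9.72 and 9.45 in the R-SDS samples, against 9.42 and 9.49 in Control. Only R-SDS 1 stood above both Control values. Sdha, the flavoprotein that oxidises succinate, read 11.20 and 11.13 in the R-SDS samples, against 11.19 and 10.99 in Control (difference 0.076, SE 0.14). Sdhb, which carries the iron-sulfur clusters, differed by 0.025 (SE 0.14), and Sdhd, the second anchor, by 0.014 (SE 0.14). Within number 1 the median of the 4 genes was 0.099, and within number 2 it was -0.041.

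Complex III, which hands electrons from ubiquinol to cytochrome c, had 5 genes higher and 3 lower, with a median of 0.032 and no gene with separate groups. Uqcrq, a small subunit at the ubiquinone site, was the highest at 0.072 (SE 0.20), with 8.36 and 8.01 in the R-SDS samples, against 8.32 and 7.90 in Control. Uqcrfs1, the Rieske iron-sulfur protein, was the lowest at -0.042 (SE 0.14), with 8.20 and 8.02 in the R-SDS samples, against 8.16 and 8.15 in Control. Uqcrc1, a core protein, read 9.65 and 9.23 in the R-SDS samples, against 9.55 and 9.25 in Control (difference 0.040, SE 0.19). In Uqcrq and Uqcrc1 the first sample of each group was well above the second, so the numbers separated the samples more than the stress did. The median was 0.081 within number 1 and -0.036 within number 2.

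Complex V, the ATP synthase, had 11 genes higher and 6 lower, with a median of 0.012 that fell below 0 under quantile normalisation (-0.012) and under centring of the arrays (-0.0025). All 17 genes lay within 0.1 of 0. Atp5b, the catalytic beta subunit, read 11.94 and 11.69 in the R-SDS samples, against 11.84 and 11.74 in Control (difference 0.028, SE 0.15). Atp5c1, the rotating gamma subunit, read 10.27 and 10.26 in the R-SDS samples, against 10.36 and 10.19 in Control (difference -0.012, SE 0.14). The R-SDS values of Atp5b lay on either side of the Control values, and those of Atp5c1 lay between them. Atp5j2, a subunit of the membrane part, was the lowest of the complex at -0.064 (SE 0.14).

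The c ring of the ATP synthase is built from 1 protein that is encoded by 3 genes, Atp5g1, Atp5g2 and Atp5g3. Atp5g1 was the highest gene of complex V at 0.093 (SE 0.15), with 11.01 and 10.77 in the R-SDS samples, against 10.76 and 10.83 in Control, so that R-SDS 1 alone exceeded both Control values. Atp5g2 had 10.35 and 10.34 in the R-SDS samples, against 10.22 and 10.32 in Control (difference 0.072, SE 0.13), and its groups did not overlap. Atp5g3 had 10.28 and 10.11 in the R-SDS samples, against 10.21 and 10.22 in Control (difference -0.018, SE 0.14). By group means the 3 genes for the same protein did not share a sign, though that of Atp5g3 turned without R-SDS 2 (0.069). Within number 1 all 3 were higher, by 0.25 (Atp5g1), 0.13 (Atp5g2) and 0.073 (Atp5g3). Within number 2 the differences were -0.065, 0.018 and -0.11 in the same order.

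**Figure D2:**
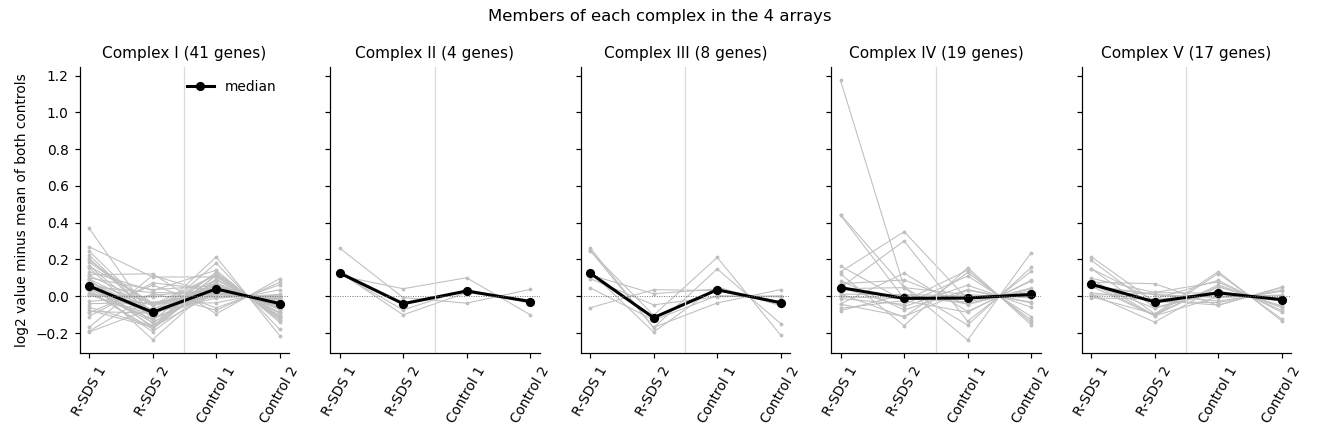
Log2 value of every gene in each of the 4 arrays after subtracting its Control mean (vertical axis), with 1 panel for each of the 5 complexes. Grey lines are genes and black lines are medians; the medians of all 5 complexes are above 0 in R-SDS 1 and below 0 in R-SDS 2, and 3 lines of complex IV stand apart in R-SDS 1.

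Complex IV, or cytochrome c oxidase, passes the electrons to oxygen and held the widest differences. Its 11 broadly expressed genes lay between -0.077 and 0.044, with 4 higher and 7 lower. They include Cox7a2l, a factor of respiratory supercomplexes, among the 7 lower. Cox4i1, the largest nuclear subunit, read 9.77 and 9.61 in the R-SDS samples, against 9.72 and 9.65 in Control (difference 0.0055, SE 0.14). Cox5b, which binds zinc, read 10.40 in both R-SDS arrays against 10.39 and 10.38 in Control (difference 0.011, SE 0.13). Both signs turned under quantile normalisation and under centring of the arrays, as did that of the median of complex IV as a whole (0.011 as deposited, -0.0080 and -0.0041 so scaled). Cox5a, a subunit on the matrix side, was the lowest gene of the complex at 8.985 and 8.918 in the R-SDS samples, against 9.061 and 8.995 in Control (difference -0.077, SE 0.13, adjusted p = 1 by limma), and its groups did not overlap.

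The 8 isoforms of complex IV that are known for restricted expression were higher in R-SDS in 7 cases, against 52.9% of all transcripts, with a median difference of 0.19 and 0 past any threshold of the test. Within number 1 all 8 were higher (median 0.17), and within number 2 it was 4 of 8 (median 0.0002). Without R-SDS 1 the median was 0.049, with 5 of 8 higher. Cox8b, the isoform of subunit VIII known from heart, skeletal muscle and brown fat of rodents, had the largest difference of all members. It read 6.27 and 5.15 in the R-SDS samples, against 4.86 and 5.34 in Control. R-SDS 1 was high, and R-SDS 2 lay between the Control values. The group difference was 0.61 (SE 0.37, 95% interval -0.30 to 1.52, adjusted p = 1 by limma), with 1.41 within number 1 and -0.19 within number 2. Without R-SDS 2 the difference was 1.17, and without R-SDS 1 it was 0.049.

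Cox6b2, the testis isoform of subunit VIb, showed the same arrangement of samples. It read 5.82 and 5.42 in the R-SDS samples, against 5.22 and 5.53 in Control (difference 0.25, SE 0.19, adjusted p = 1 by limma). Cox7a1, the heart and muscle isoform of subunit VIIa, read 6.09 and 5.64 in the R-SDS samples, against 5.62 and 5.68 in Control (difference 0.21, SE 0.18, adjusted p = 1 by limma). In both, R-SDS 1 was the highest of the 4 samples and R-SDS 2 lay among the Control values, with differences of 0.60 and 0.47 within number 1 and of -0.11 and -0.043 within number 2. Without R-SDS 1 the difference of Cox6b2 was 0.049 and that of Cox7a1 was -0.013.

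Cox8c, the testis isoform of subunit VIII, differed from these in that both R-SDS values exceeded both Control values. It read 5.12 and 5.34 in the R-SDS samples, against 4.98 and 5.01 in Control (difference 0.24, SE 0.14, adjusted p = 1 by limma). Cox7b2, a second form of subunit VIIb, had 3.92 and 4.17 in the R-SDS samples, against 3.74 and 4.01 in Control (difference 0.17, SE 0.17), with a gap of 0.18 within number 1 and 0.17 within number 2. Its groups overlapped, because each second sample was above the first. Of the others, Cox6a2, the heart and muscle isoform of subunit VIa, differed by 0.078 (SE 0.13), Ndufa4l2 by 0.070 (SE 0.16) and Cox4i2, known from lung and from hypoxia, by -0.044 (SE 0.14). The values carry no detection call, so whether these isoforms were above background is not known.

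By group means over all 4 arrays, the broadly expressed partner was closer to 0 than its restricted isoform in 8 of 8 pairs, but without R-SDS 1 this held in 4 of 8, and without R-SDS 2 in 6 of 8. Without R-SDS 1 it did not hold for Cox8a (0.13) beside Cox8b (0.049), nor for the partners of Cox6b2, Cox7a1 and Cox4i2. The values that follow are those over all 4 arrays. Cox8a read 10.56 and 10.73 in the R-SDS samples, against 10.52 and 10.68 in Control (difference 0.042), beside 0.61 for Cox8b and 0.24 for Cox8c. Cox6b1 differed by -0.0045, beside 0.25 for Cox6b2, and Cox7a2 by -0.019, beside 0.21 for Cox7a1. The other partners were Cox7b (-0.028), Cox6a1 (-0.034), Cox4i1 (0.0055) and Ndufa4 (-0.0074). Standard errors of these partners lay between 0.13 and 0.17. A mean of at least 8 was reached by 0 of the 8 isoforms and by all 11 broadly expressed genes of complex IV. Differences under 0.1 were found in 62.4% of all transcripts and in 79.3% of those with such a mean. For the isoforms, the median absolute gap between Control 1 and Control 2 was 0.22, beside a median group difference of 0.19.

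**Figure D3:**
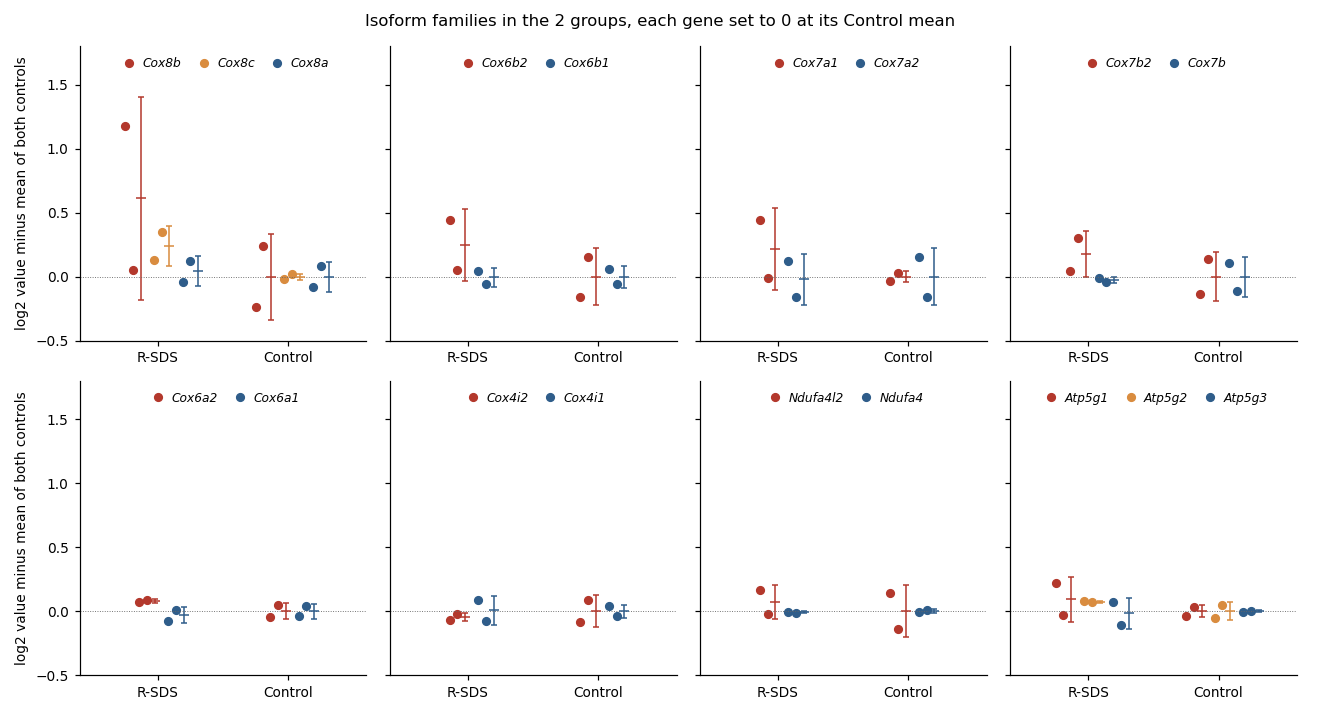
Log2 values of restricted isoforms (red, and orange for Cox8c), broad partners (blue) and the 3 c-ring genes in R-SDS and Control, each gene set to 0 at its Control mean (vertical axis). Points are samples, R-SDS 1 or Control 1 left of R-SDS 2 or Control 2, and bars are the group mean and SD (n = 2); Cox8b, Cox6b2 and Cox7a1 have 1 R-SDS sample above the rest.

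The promoters of the isoforms with the largest differences in R-SDS 1 and of their partners are shown so that both forms of each subunit can be set side by side. No test of an isoform against its partner was run. Sequences are from RefSeq for GRCm38.p6, run 5′ to 3′ on the strand of the gene and cover 100 bases before and 20 bases from the annotated start. Capitals mark a match on either strand to 1 of 3 motifs: TGCGCA (core of the site of nuclear respiratory factor 1, NRF-1), CCGGAAG (ETS factors such as GABPA) or TATAAA, a core promoter element. None of the 3 motifs contains another.
Cox8b (chr7:140900427-140900546, minus strand, muscle and brown fat isoform): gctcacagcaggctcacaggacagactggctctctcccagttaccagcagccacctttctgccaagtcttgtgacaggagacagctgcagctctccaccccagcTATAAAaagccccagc
Cox8a (chr19:7217597-7217716, minus strand, its broad partner): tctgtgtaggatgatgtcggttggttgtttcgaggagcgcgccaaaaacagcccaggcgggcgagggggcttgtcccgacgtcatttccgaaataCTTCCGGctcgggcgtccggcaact
Cox6b2 (chr7:4753075-4753194, minus strand, testis isoform): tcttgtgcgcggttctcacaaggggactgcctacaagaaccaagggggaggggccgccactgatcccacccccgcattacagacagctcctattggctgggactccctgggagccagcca
Cox6b1 (chr7:30626095-30626214, minus strand, its broad partner): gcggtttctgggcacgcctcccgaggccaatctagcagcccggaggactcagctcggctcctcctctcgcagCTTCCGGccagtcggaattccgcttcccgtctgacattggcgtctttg
Cox7a1 (chr7:30184071-30184190, plus strand, muscle isoform): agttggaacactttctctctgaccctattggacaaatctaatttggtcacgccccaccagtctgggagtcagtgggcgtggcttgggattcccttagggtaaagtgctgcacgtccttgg
Cox7a2 (chr9:79759834-79759953, minus strand, its broad partner): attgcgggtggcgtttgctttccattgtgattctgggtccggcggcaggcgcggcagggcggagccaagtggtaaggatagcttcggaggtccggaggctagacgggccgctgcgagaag

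The stretches of Cox8a and Cox6b1 each held 1 ETS motif, read on the opposite strand as CTTCCGG, and those of Cox6b2, Cox7a1 and Cox7a2 held no match. The TATAAA of Cox8b lay just after the annotated start. NRF-1 is a known activator of respiratory chain genes, and 2 promoters with its motif are added for comparison.
Sdha (chr13:74350221-74350340, minus strand, complex II): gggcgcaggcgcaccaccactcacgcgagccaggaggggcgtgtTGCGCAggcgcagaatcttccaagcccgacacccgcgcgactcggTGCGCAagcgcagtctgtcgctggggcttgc
Atp5g2 (chr15:102671028-102671147, minus strand, complex V): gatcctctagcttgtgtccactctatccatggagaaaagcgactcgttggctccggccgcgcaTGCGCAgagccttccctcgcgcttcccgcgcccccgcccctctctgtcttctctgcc

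Sdha held 2 NRF-1 motifs in this stretch and Atp5g2 held 1. Over the longer window of 250 bases before to 50 after the start, 73 of the 89 genes had a sequence. A gene was counted when any of its promoters held a match. The NRF-1 motif was found in 18 of the 73 (24.7%), against 8.79% of the 27025 genes with a promoter. The ETS motif was found in 18 of 73 (24.7%), against 9.93% of all such genes, and TATAAA in 8 of 73 (11%), against 15.7%. Of the restricted isoforms of complex IV, 4 had a sequence, with 0 holding the NRF-1 motif, 0 the ETS motif and 2 the TATAAA (Cox8b and Cox7b2). A match describes letters and is not a measured binding site, and no match says only that these letters were not in the window.

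Some other markers were also high in the sample in which Cox8b, Cox6b2 and Cox7a1 were high, though not all in that sample alone. All 12 measured choroid plexus markers (of 14 listed) were higher in R-SDS by group mean, with a median difference of 2.26 within number 1 and of 0.00069 within number 2, and their summed signal was 13.82 and 10.12 in the R-SDS samples, against 11.79 and 9.63 in Control (log2). Alas2, the erythroid enzyme of haem synthesis and the only erythroid marker measured, had 7.41 and 5.80 in the R-SDS samples, against 5.66 and 5.94 in Control. Endothelial and mural cell markers had medians of 0.49 and 0.42 above the Control mean in R-SDS 1, against 0.036 and 0.072 in R-SDS 2. Between samples of the same number, their medians were 0.36 and 0.25 within number 1, and 0.085 and 0.16 within number 2. All 7 mural cell markers and 4 of the 7 endothelial ones were higher in both numbers. For the 7 astrocyte markers, the median was 0.24 above the Control mean in R-SDS 1, against -0.0022 in R-SDS 2. Within numbers 1 and 2 the astrocyte medians were 0.15 and 0.084. The part of these in the isoform values was not tested. The 8 markers of skeletal and heart muscle were not higher, with 3 above and 5 below 0, a median of -0.042 and a summed signal of 9.02 and 9.09 in the R-SDS samples, against 9.07 and 9.16 in Control. Ckm, the creatine kinase of muscle, read 5.67 and 5.85 in the R-SDS samples, against 5.82 and 6.07 in Control.

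**Figure D4:**
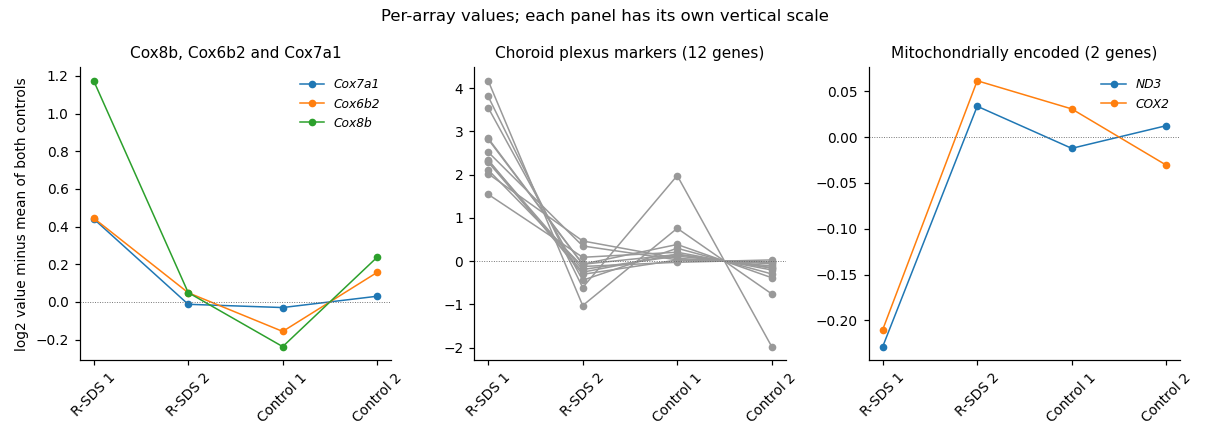
Log2 value minus the mean of both Control samples (vertical axis) in each of the 4 arrays for Cox8b, Cox6b2 and Cox7a1 (left), 12 choroid plexus markers (middle) and 2 mitochondrially encoded subunits (right); lines join the values of 1 gene and the vertical scales differ. R-SDS 1 is the highest sample for the 3 isoforms and the lowest for both mitochondrially encoded genes.

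The direction of the members depended on which samples were set against each other. Within number 1, 56 of the 89 genes (62.9%) were higher in R-SDS (median 0.023), against 51.7% of all transcripts. Within number 2, 36 (40.4%) were higher (median -0.015), against 52.6% of all transcripts. Higher in both numbers were 21 genes (23.6%), against 27.3% of all transcripts, and lower in both were 18 (20.2%), against 22.7%. Samples of 1 group differed from each other more than the group means did, for the members as for all transcripts. The median absolute difference of the members was 0.0445 between groups, 0.161 between the R-SDS samples and 0.0997 between the Control samples. Over all transcripts it was 0.0744, 0.173 and 0.176. R-SDS 1 exceeded R-SDS 2 in 72 of the 89 genes (median 0.14), against 50% of all transcripts, and Control 1 exceeded Control 2 in 64 (median 0.065), against 51.6% of all transcripts. Transcripts with a mean of at least 8 leaned the same way between samples of 1 group. Of these, 3628 of 5579 were higher in R-SDS 1 than in R-SDS 2 (median 0.078) and 4216 of 5579 in Control 1 than in Control 2 (median 0.11). By group means these bright transcripts leaned as the members did, with 3073 of 5579 higher in R-SDS (median 0.0091), beside 49 of 89 members (median 0.0055). Within each number, the bright transcripts leaned the opposite way to the members. R-SDS was higher in 2628 of 5579 within number 1 (median -0.0086) and in 3547 of 5579 within number 2 (median 0.029). Whether the numbers mark a shared batch is not stated, and the part of a batch was not tested.

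**Figure D5:**
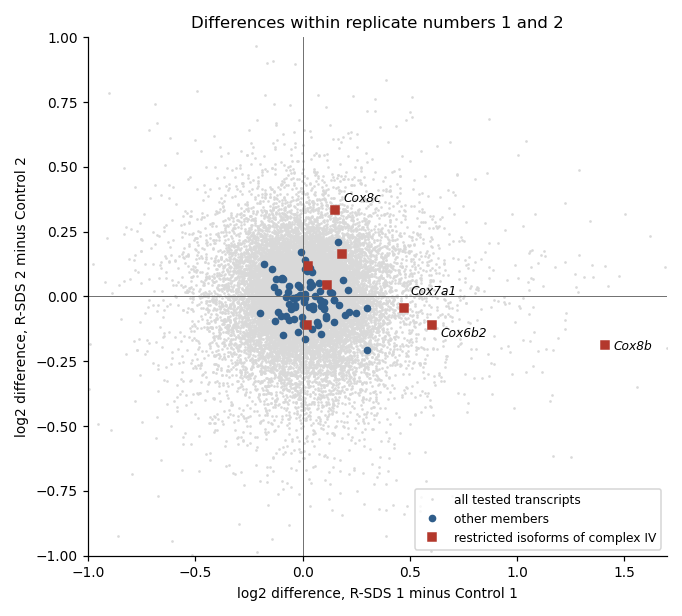
Log2 difference within replicate number 1 (R-SDS 1 minus Control 1, horizontal axis) against that within number 2 (R-SDS 2 minus Control 2, vertical axis) for the 21789 transcripts (grey, 44 outside the axes), the restricted isoforms of complex IV (red squares) and the other members (blue). The members gather around 0, and Cox8b, Cox6b2 and Cox7a1 lie to the right and just under the horizontal line.

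Of the partners encoded in mitochondrial DNA, 2 were measured, and both were lower in R-SDS 1 than in the other samples. ND3, a membrane subunit of complex I, read 11.93 and 12.19 in the R-SDS samples, against 12.14 and 12.17 in Control (difference -0.098). COX2, which takes electrons from cytochrome c in complex IV, read 12.44 and 12.71 in the R-SDS samples, against 12.68 and 12.62 in Control (difference -0.074). Their median was -0.23 within number 1 and 0.057 within number 2. The nuclear genes of complex I, that of ND3, had medians of -0.00093 and -0.014, the same in sign within number 1 only. Those of complex IV, that of COX2, had medians of 0.023 and 0.0041, the same in sign within number 2 only. The nuclear medians of complexes II, III and V were opposite in sign in both numbers.

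Other genes of the same organelle were read from lists, and none of their genes passed an unadjusted limma p of 0.05. Cytochrome c and its relatives (3 genes, counting Cyc1, the cytochrome of complex III) lay between -0.023 and 0.019. Assembly factors other than Ndufaf genes had 19 of 30 higher, with a median of 0.048, led by Cox15, an enzyme of haem A synthesis (0.26), with Atpaf1, a chaperone of the ATP synthase, the lowest (-0.14). Regulators of mitochondrial biogenesis had 5 of 12 higher, from Polrmt, the mitochondrial RNA polymerase (-0.14), to Ppargc1b, a coactivator (0.079). The tricarboxylic acid cycle had 9 of 14 higher, led by Cs, citrate synthase (0.18), with a median of 0.028. Membrane carriers and import genes had 6 of 13 higher, from Tomm40, the pore of protein import (-0.084), to Immt, a cristae organiser (0.10). Uncoupling and antioxidant genes had 5 of 8 higher, from Ucp3 (-0.15) to Gpx1, a glutathione peroxidase (0.14). The median of each of these 6 lists was within 0.05 of that over all transcripts (0.0072).

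For 17 of the 89 genes the array held several rows, 42 in all. The rows of a gene spanned a median of 0.053 and at most 0.13 (Cox7a2l, a factor of respiratory supercomplexes, and Ndufb11, an accessory subunit of complex I). In 7 genes the rows disagreed in sign, among them Cox5b (-0.014 and 0.011) and Ndufb11, whose second row was at 0.043 beside -0.087 for the row used. Averaging the rows turned the sign of Cox5b alone among the genes named by the rule, and left 0 members past the adjusted p. Members with groups that did not overlap are not counted after averaging, since the share of all genes is not given there.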

How the data were processed

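Hippocampal RNA of 2 R-SDS and 2 Control samples was measured. The authors deposited log2 values from RMA (Affymetrix Expression Console). Which arrays were normalised together is not stated in the labels or methods, and signal without detection calls and the number of arrays limit the precision. Of 35556 rows, 21789 carried 1 gene symbol and were tested, 1621 carried several and 12146 were not listed. The 2 groups were compared by limma 3.58.1 in R 4.3.3 (eBayes, two-sided p, Benjamini-Hochberg over all 21789 transcripts, 2 residual and 4.07 prior degrees of freedom). The procedure was tested on simulated data. Members and lists were chosen with earlier results of these data known. Genes named by rule were the highest and lowest of each complex, the 8 largest absolute differences, isoform pairs and listed examples. Genes outside this rule that the text names were chosen after their values were seen. Alternatives were a replicate block, quantile normalisation, median centring, a brightness filter, an intensity trend, the methods' t-test (named there without saying what gave the array p-values), row averaging, structural subunits alone and leaving out each array. Motifs were searched in RefSeq promoters with Python 3.11.15, and the NRF-1 core was settled on after a longer form had been searched.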

Additional observations from a re-analysis of the deposited data

How the results depend on the processing

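Of 34 genes named by rule, 0 passed the adjusted p in any alternative that gave them a value, which was every 1 but the choice of structural subunits alone, with 24 of the 34 measured under the brightness filter. Across all transcripts, 74 passed the thresholds of the study, 2 when a mean of at least 8 was required and 19 by the methods' t-test, which also put 4 members at an unadjusted p under 0.05, against 0 by limma. Quantile normalisation turned the signs of Atp5b (-0.0040), Cox4i1 (-0.0092), Cox5b (-0.0080) and Sdhd (-0.0062), median centring those of Cox4i1 (-0.0091), Cox5b (-0.0041) and Sdhd (-0.0002), and averaging rows that of Cox5b (-0.0017). They shifted the median of all transcripts to -0.0045 (quantile) and -0.0074 (centring).

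Replicate numbers are shared by the groups, but the labels do not say that they pair samples, and deviations of same-numbered samples correlated at 0.517. With the replicate block, 1047 transcripts (4.81%) had an unadjusted p under 0.05, against 221 without it, and 0 passed the adjusted p. The block left 0 members called and changed no call.

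Leaving out 1 array in turn, with the lone sample assumed to vary like the others, gave 0 to 49 transcripts past the adjusted p (49 without R-SDS 2 and 2 without R-SDS 1), 174 to 739 past the thresholds of the study, 0 to 1 members at an unadjusted p under 0.05 and 0 to 1 past the thresholds (Cox8b, without R-SDS 2). Members whose groups did not overlap numbered 41 to 63, since fewer samples separate more easily. The median difference of all members ranged from -0.0466 to 0.0679 and that of complex I from -0.0873 to 0.0565, each lowest without R-SDS 1 and highest without R-SDS 2. Median differences ranged from -0.041 to 0.13 for complex II and from -0.12 to 0.13 for complex III, each lowest without R-SDS 1 and highest without R-SDS 2. They ranged from -0.012 (without R-SDS 1) to 0.053 (without Control 1) for complex IV and from -0.030 (without R-SDS 1) to 0.066 (without R-SDS 2) for complex V. The sign turned in 24 of the 34 named genes, whose differences ranged over Atp5b (-0.096 to 0.15), Atp5c1 (-0.099 to 0.075), Atp5g1 (-0.030 to 0.22), Atp5g3 (-0.11 to 0.069), Atp5j2 (-0.14 to 0.013), Cox4i1 (-0.074 to 0.086), Cox4i2 (-0.13 to 0.043), Cox6a1 (-0.078 to 0.010), Cox6b1 (-0.065 to 0.056), Cox7a1 (-0.013 to 0.44), Cox7a2 (-0.18 to 0.14), Cox7b (-0.14 to 0.082), Cox8a (-0.042 to 0.13), Ndufa4 (-0.017 to 0.0023), Ndufa4l2 (-0.072 to 0.21), Ndufs1 (-0.12 to 0.025), Ndufv1 (-0.12 to 0.065), Sdha (-0.024 to 0.18), Sdhb (-0.074 to 0.12), Sdhc (-0.0070 to 0.26), Sdhd (-0.10 to 0.13), Uqcrc1 (-0.17 to 0.25), Uqcrfs1 (-0.13 to 0.046) and Uqcrq (-0.14 to 0.28). The 9 that kept their sign in every alternative that measured them also moved in size, namely Atp5g2 (0.023 to 0.12), Cox5a (-0.11 to -0.043), Cox6a2 (0.033 to 0.12), Cox6b2 (0.049 to 0.44), Cox7b2 (0.038 to 0.31), Cox8b (0.049 to 1.17), Cox8c (0.13 to 0.35), Ndufaf2 (0.082 to 0.29) and Ndufaf5 (-0.19 to -0.0655). The cause of these shifts was not tested.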
